A study of Mus musculus with 12 samples.

Results

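The collagen chain genes are the genes for the α chains from which collagens are built, and they were taken here as every gene probe whose array name reads Col, a number, a and a number, with nothing after it. This gave 41 genes and 61 probes, out of 28052 named genes and 55681 gene probes on the array. By structure, 11 of the genes encode fibrillar chains, 9 network-forming chains, 4 beaded-filament chains, 9 fibril-associated chains and 8 other chains (anchoring, multiplexin or transmembrane). Of the 41, 28 were well above background on 6 or more of the 12 arrays and were tested. These are 9 fibrillar, 8 network, 2 beaded-filament, 5 fibril-associated and 4 other chains. Col4a3bp, whose name starts in the same way, encodes a lipid transfer protein and was not counted.

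Collagens are helical trimers of α chains, and a chain is secreted only after it has found its partners. Fibrillar collagens carry the tension of the vessel wall, with types I and III in the media and adventitia and type V inside the same fibrils. Type IV forms the sheet of basement membranes under the endothelium and around each smooth muscle cell, type VIII forms short-chain networks that smooth muscle and endothelial cells lay down, type VI forms beaded filaments between cells and fibrils, and fibril-associated collagens coat the surface of the fibrils.

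RNA came from descending aortas of male C57BL/6 mice, 6 of them aged 20 months and 6 aged 6 months, with 1 Agilent 1-colour array per mouse. The labels name no engineered allele and no treatment at either age, and the vessels were rinsed with cold buffer and freed of surrounding fat and connective tissue before freezing. The comparison asks how gene expression in the aorta of old animals differs from that of adult ones. Values are log2 signals relative to the 75th percentile of the array, the error beside a mean is the SD, and the error beside a change (20 months minus 6 months) is the standard error of the limma fit.

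The arrays lay on 3 slides with 2 mice of each age on each slide, and slide 3 was scanned on a later day. All 20-month arrays lay in column 3 of their slide and the 6-month arrays in column 1 or 4, so that age and column cannot be told apart. Between 47.5% and 55.8% of gene probes were well above background per array. Markers of smooth muscle were high at both ages, and so were several markers of fat. The median level over 12 arrays was 8.06 for smooth muscle markers, 5.43 for fibroblast and 2.46 for endothelium markers. It was 6.42 for white fat and 5.17 for brown fat markers. Different probes are not comparable in level, so the share of fat in the RNA is not known. Acta2, smooth muscle actin, averaged 10.13 at 20 months and 10.14 at 6 months, and the mean of the 6 smooth muscle markers, relative to its 12-array mean, ranged from -0.24 to 0.13 at 20 months and from -0.39 to 0.26 at 6 months. The vessels of 3 mice, called the 3 outlying arrays below, had high markers of heart muscle or T cells. Relative to their 12-array mean, the 6 heart muscle markers averaged 3.94 for 20 months replicate 1 and 2.59 for 6 months replicate 1, and the 4 T cell markers averaged 1.82 for 6 months replicate 4. In 4 of the 12 marker lists (macrophage, mesothelium, brown fat and cartilage) every measured gene had a change of the same sign, and none of these genes was called. The mean of the 5 macrophage markers ranged from 0.02 to 0.41 at 20 months and from -0.42 to 0.17 at 6 months, and that of the 5 mesothelium markers from -2.02 to 0.75 at 20 months and from -0.28 to 2.36 at 6 months. The mean of the 4 brown fat markers ranged from -0.80 to 1.02 at 20 months and from -0.50 to 1.35 at 6 months. The highest mesothelium mean was that of 6 months replicate 3 and the highest brown fat mean that of 6 months replicate 6. Neither array is among the 3 outlying arrays, which were chosen by heart muscle and T cell markers only. The part of these markers in the collagen values was not tested. In whole-vessel RNA, fewer cells of a type and less RNA per cell cannot be told apart.

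The promoters of 2 pairs of partner chains are shown. Col8a1 and Col8a2 are among the chains with the smallest p-values below, and Col4a1 and Col4a2 are partners that start close together. Col4a1 and Col4a2 start 21 bases apart on opposite strands of chromosome 8, so their windows, from 250 bases before to 50 bases after the start, share 78 bases. The windows of Col8a1 and Col8a2 lie on different chromosomes. Capitals mark matches to CCAAT or GGGCGG on either strand (ATTGG and CCGCCC on the other strand), and the sequences are those of RefSeq on GRCm38.p6, written along the strand of the gene.
Col4a1 (chr8:11312777-11313076, minus strand): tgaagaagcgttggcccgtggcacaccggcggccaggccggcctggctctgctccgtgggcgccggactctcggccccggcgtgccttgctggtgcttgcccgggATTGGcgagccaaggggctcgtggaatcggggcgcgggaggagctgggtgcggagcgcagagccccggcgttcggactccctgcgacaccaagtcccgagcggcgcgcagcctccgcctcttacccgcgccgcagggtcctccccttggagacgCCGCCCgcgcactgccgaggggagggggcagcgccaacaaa
Col4a2 (chr8:11312555-11312854, plus strand): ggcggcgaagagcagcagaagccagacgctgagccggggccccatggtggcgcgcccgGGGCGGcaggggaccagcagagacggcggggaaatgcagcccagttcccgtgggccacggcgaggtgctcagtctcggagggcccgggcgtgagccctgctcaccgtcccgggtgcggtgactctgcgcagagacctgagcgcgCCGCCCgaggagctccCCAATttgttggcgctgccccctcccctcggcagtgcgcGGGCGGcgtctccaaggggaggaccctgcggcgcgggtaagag
Col8a1 (chr16:57754688-57754987, minus strand): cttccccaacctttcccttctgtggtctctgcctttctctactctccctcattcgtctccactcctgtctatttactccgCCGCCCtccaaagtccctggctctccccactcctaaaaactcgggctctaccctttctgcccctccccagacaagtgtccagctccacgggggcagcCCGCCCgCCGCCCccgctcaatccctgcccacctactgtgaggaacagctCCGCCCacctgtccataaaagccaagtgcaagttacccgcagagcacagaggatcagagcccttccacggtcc
Col8a2 (chr4:126286544-126286843, plus strand): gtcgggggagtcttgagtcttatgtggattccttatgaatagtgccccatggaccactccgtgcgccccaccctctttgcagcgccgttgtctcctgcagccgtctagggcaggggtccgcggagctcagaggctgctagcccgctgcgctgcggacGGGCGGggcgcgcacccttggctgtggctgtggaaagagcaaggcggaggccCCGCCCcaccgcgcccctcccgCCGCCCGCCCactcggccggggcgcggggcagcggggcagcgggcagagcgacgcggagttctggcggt
GGGCGG, a binding sequence of Sp family factors, occurred 4 times each in the windows of Col8a1 and Col8a2, 1 time in that of Col4a1 and 3 times in that of Col4a2. The site of Col4a1 lies in the bases that both windows share and is 1 of the 3 of Col4a2, so it is counted for both. The windows counted next are therefore not all independent. Of the 41 chain genes, 33 had a window in the table (36 windows in all), and 22 of these 36 windows, or 61.1%, held GGGCGG, against 35.7% of all 32851 windows. CCAAT was in 36.1% of the chain windows and 37.4% of all windows, TATAAA in 13.9% and 13.6%, TGANTCA in 2.78% and 7.81%, and the CArG box, the binding sequence of serum response factor, in 2.78% and 1.63%. All motifs were searched on both strands, and a match is a description of the letters, not of a factor at work. The window of Col4a4 held none of the 5 motifs and that of Col3a1 held 1 TATAAA.

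No collagen chain gene passed the test between the ages. With limma and Benjamini-Hochberg adjustment over all 16820 genes tested, 0 of the 28 chains had an adjusted p under 0.05, against 53 of all genes, or 0.315% (0.262% higher and 0.0535% lower at 20 months). At an unadjusted p under 0.05 there were 4 chains of 28, against 1341 genes, or 7.97% of all (4.58% higher and 3.39% lower at 20 months). The 4 are the network chains Col4a4, Col8a1 and Col8a2, higher at 20 months, and the fibrillar chain Col3a1, lower at 20 months. None of the 28 had all its values at 1 age above all those at the other, a pattern shown by 0.815% of all genes (0.618% higher and 0.196% lower at 20 months). The change was positive for 19 chains and negative for 9, with a median of 0.055, beside a median of -0.020 over all genes tested (7371 positive and 9449 negative). By class, the median change was 0.030 for fibrillar chains, 0.123 for network chains, 0.095 for beaded-filament chains, 0.031 for fibril-associated chains and 0.084 for the other chains. Single arrays moved these medians, so the order of the classes is not settled. The fibrillar median was -0.045 without 6 months replicate 4, and the fibril-associated median ranged from -0.059 (without 20 months replicate 5) to 0.150 (without 20 months replicate 2). For 22 of the 28 chains, the 95% interval of the change lay within 0.5 log2 units of 0, that is within 1.41-fold in either direction. The 22 include Col4a4 (0.16 to 0.49) and Col3a1 (-0.497 to -0.054), whose intervals left out 0. This count was not made over all genes, so it is not shown to be particular to collagen chains.

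**Figure D1:**
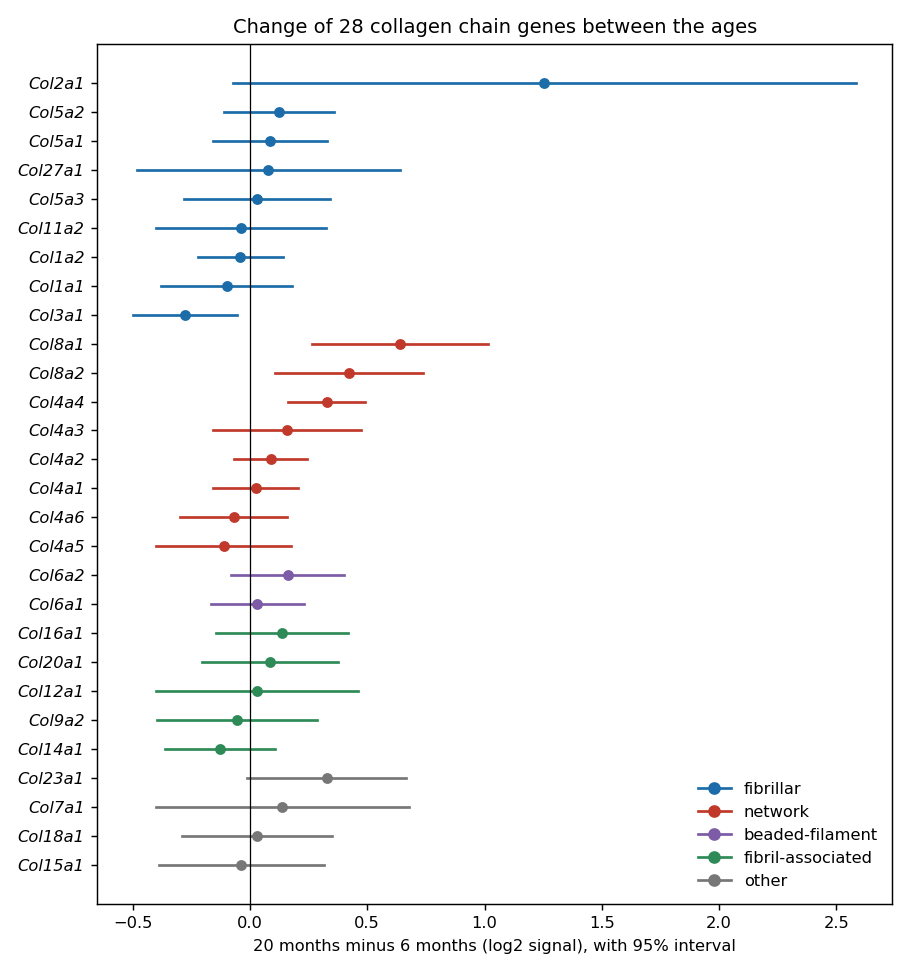
Change of each tested collagen chain gene, 20 months minus 6 months, as points on a log2 axis with the 95% interval of the limma fit as lines (n = 6 mice per age), coloured by structural class. Intervals of Col4a4, Col8a1 and Col8a2 lie above 0 and that of Col3a1 below it, before adjustment for the number of genes, and the interval of Col2a1 is the widest of the 28.

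Among the fibrillar chains, both chains of type I collagen had intervals that include 0. Col1a2, the α2 chain of type I collagen, ranged from 8.16 over a median of 8.22 to 8.33 at 20 months and from 8.07 over 8.21 to 8.50 at 6 months. The 20-month values lay inside the range at 6 months. Its means were 8.23 ± 0.07 at 20 months and 8.27 ± 0.17 at 6 months, a change of -0.04 ± 0.08 with a 95% interval from -0.22 to 0.14 (adjusted p = 0.920).

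Col1a1, the α1 chain that makes up most of each type I trimer, ranged from 5.98 over a median of 6.07 to 6.36 at 20 months and from 5.93 over 6.16 to 6.74 at 6 months. The ages overlapped almost fully, and the highest value was that of 6 months replicate 1. The change was -0.10 ± 0.13, with a 95% interval from -0.38 to 0.18 (adjusted p = 0.869). Without 6 months replicate 1 it was 0.0031, so the sign of the Col1a1 change rests on that array, and the same holds for Col1a2 (0.0060 without it).

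Col3a1 forms type III collagen, the homotrimer whose mutation in humans causes the vascular form of Ehlers-Danlos syndrome. Its probe (chr1:45405589-45405648, mm9) ranged from 5.84 over a median of 6.10 to 6.24 at 20 months and from 6.11 over 6.40 to 6.66 at 6 months. The lowest value was that of 20 months replicate 1 and the highest that of 6 months replicate 1, both arrays with heart muscle markers, and the ages overlapped between 6.11 and 6.24. Col3a1 averaged 6.09 ± 0.15 at 20 months and 6.37 ± 0.20 at 6 months, a change of -0.28 ± 0.10 or 1.21-fold lower. The unadjusted p was 0.019 and the adjusted p 0.489. Within the slides the change was -0.45, -0.05 and -0.33, with the slide as a block the adjusted p was 0.381, and without the 3 outlying arrays the change was -0.22 (adjusted p = 0.442).

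The type V chains, which sit in the core of type I fibrils and set their diameter, had small positive changes. Col5a1 averaged 3.54 ± 0.18 at 20 months and 3.46 ± 0.21 at 6 months (change 0.09 ± 0.11), Col5a2 -0.01 ± 0.23 at 20 months and -0.13 ± 0.14 at 6 months (change 0.12 ± 0.11), and Col5a3 had a change of 0.03 ± 0.14. The adjusted p was 0.868 for Col5a1 and 0.790 for Col5a2. The dim fibrillar chains had no precise value. Col27a1, best known from growing cartilage, had a change of 0.08 ± 0.26, and Col11a2, a type XI chain of cartilage fibrils that was above background on 3 of 6 arrays at each age, of -0.04 ± 0.17.

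Col2a1, the chain of cartilage collagen, was near background and had the widest interval of the 28 tested chains. It ranged from -3.62 over a median of -2.52 to -1.91 at 20 months and from -5.66 over -3.93 to -1.41 at 6 months. At 20 months 5 of 6 arrays were above background and at 6 months 2 of 6, and the highest value of all 12 was that of 6 months replicate 6. The means were -2.68 ± 0.61 at 20 months and -3.94 ± 1.60 at 6 months, the fitted change was 1.26 ± 0.62, and the adjusted p was 0.661. The 6-month mean rests mostly on signals not above background, and with normexp background correction the change was 0.24, so its size is not settled. Of the 6 cartilage markers, 3 were measured and all 3 had a positive change, Acan (the large proteoglycan of cartilage) one of 0.51 ± 0.19, Chad (chondroadherin) of 0.52 ± 0.27 and Sox9 (the regulator of cartilage genes) of 0.31 ± 0.13, none of them called. Their mean, relative to 12 arrays, ranged from -0.09 to 0.55 at 20 months and from -0.41 to 0.19 at 6 months, while Cnmd, Matn1 and Matn3 were above background on 0 arrays. The part of these markers in the Col2a1 value was not tested.

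**Figure D2:**
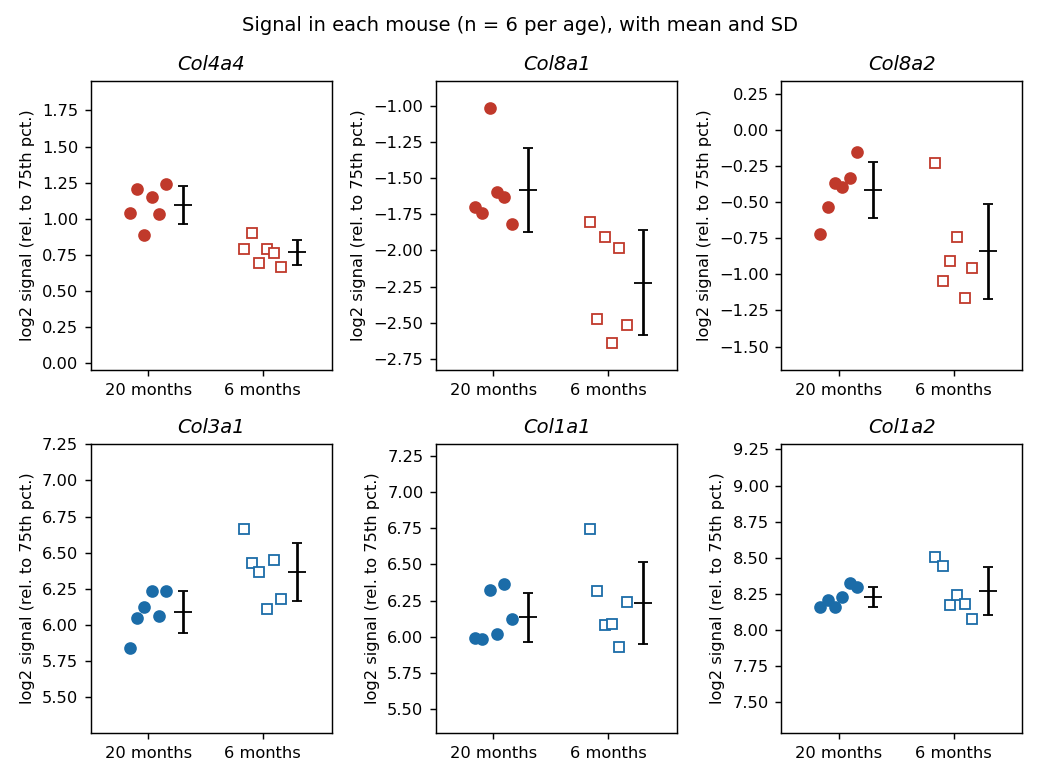
Log2 signal relative to the 75th percentile of the array in each mouse for 6 chains, with filled circles for 20 months on the left and open squares for 6 months on the right, and mean and SD as bars (n = 6 per age). Each vertical axis spans 2 log2 units, and levels should be read within a panel, since different probes are not comparable. Most 20-month values of Col4a4, Col8a1 and Col8a2 lie above most 6-month values, and the 6-month values of Col1a1 and Col1a2 enclose those at 20 months.

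The network chains held the smallest p-values of all chains. Col4a4, which joins Col4a3 and Col4a5 in the type IV network best known from the filter of the kidney, had the smallest. Its brightest probe (chr1:82447879-82447938, mm9) ranged from 0.89 over a median of 1.097 to 1.24 at 20 months and from 0.67 over 0.78 to 0.90 at 6 months. The ages overlapped only in that 20 months replicate 3, at 0.89, lay just below 6 months replicate 2, at 0.90. Col4a4 averaged 1.09 ± 0.13 at 20 months and 0.77 ± 0.08 at 6 months, a change of 0.33 ± 0.08 or 1.25-fold, with a 95% interval from 0.16 to 0.49.

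The adjusted p of Col4a4 was 0.127. The change was 0.33, 0.42 and 0.23 on the 3 slides, and the adjusted p was 0.085 with the slide as a fixed block and 0.062 with it as a random block. It passed only with arrays weighted by quality (0.35, adjusted p = 0.045), a setting under which 0.725% of all genes were called. The 2 dimmer probes of Col4a4 had changes of 0.14 ± 0.14 and 0.35 ± 0.21 and had adjusted p-values of 0.839 and 0.727 over all probes. The mean over the 3 probes was 0.27 higher at 20 months (adjusted p = 0.615).

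Col8a1, the α1 chain of type VIII collagen, had the largest change of the chains that were above background on every array. Its probe (chr16:57624471-57624530, mm9) ranged from -1.82 over a median of -1.66 to -1.01 at 20 months and from -2.64 over -2.23 to -1.80 at 6 months. The 6-month values lay in 2 sets of 3, from -2.64 to -2.48 and from -1.99 to -1.80, and 20 months replicate 3 stood above all other mice. The means were -1.58 ± 0.29 at 20 months and -2.22 ± 0.36 at 6 months, a change of 0.64 ± 0.17 or 1.56-fold, with a 95% interval from 0.26 to 1.01 (adjusted p = 0.232).

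The change of Col8a1 was 0.47, 0.61 and 0.84 on the 3 slides, and with the slide as a fixed block the adjusted p was 0.207. Without 20 months replicate 3 it was 0.52, and without the 3 outlying arrays 0.66 (adjusted p = 0.295). With normexp background correction, which compresses dim probes, it was 0.31 (adjusted p = 0.284).

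Col8a2 encodes the α2 chain of type VIII collagen, which in humans is mutated in a dystrophy of the corneal endothelium. Its brighter probe (chr4:125991441-125991500, mm9) ranged from -0.72 over a median of -0.38 to -0.15 at 20 months and from -1.17 over -0.93 to -0.23 at 6 months. At 6 months, replicate 1 stood at -0.23 and the other 5 mice at or below -0.74, while the lowest 20-month value was -0.72, so that this mouse alone made the ages overlap. The means were -0.42 ± 0.19 at 20 months and -0.84 ± 0.33 at 6 months, a change of 0.42 ± 0.15 or 1.34-fold, with an adjusted p of 0.420. The second probe of Col8a2 was above background on 1 array of each age and was not tested.

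The value of Col8a2 depended on these arrays. Without the 3 outlying arrays the change was 0.66 with an adjusted p of 0.034, the single chain called in that setting, in which 0.178% of all genes were called. Without 6 months replicate 1 alone it was 0.55 (adjusted p = 0.069). On the 3 slides it was 0.35, 0.68 and 0.24, and with the slide as a fixed block the adjusted p was 0.276.

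The chains of the common basement membrane network were close to equal at both ages. Col4a1 averaged 4.45 ± 0.07 at 20 months and 4.42 ± 0.17 at 6 months (change 0.02 ± 0.08), and Col4a2, its partner in every such trimer, 4.58 ± 0.04 at 20 months and 4.49 ± 0.13 at 6 months (change 0.09 ± 0.07). The 95% intervals ran from -0.16 to 0.20 for Col4a1 and from -0.07 to 0.24 for Col4a2. Col4a5 and Col4a6, which together form the network around smooth muscle cells, had changes of -0.11 ± 0.13 and -0.07 ± 0.11, and both were lowest in 20 months replicate 1. Col4a3 had a change of 0.16 ± 0.15 (adjusted p = 0.802).

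Of the beaded-filament chains, Col6a1 ranged from 5.09 to 5.60 at 20 months and from 5.24 to 5.53 at 6 months, with a change of 0.03 ± 0.09. Col6a2 averaged 3.76 ± 0.19 at 20 months and 3.59 ± 0.20 at 6 months, a change of 0.16 ± 0.11 (adjusted p = 0.756). Both chains are needed with Col6a3 for each type VI monomer. The array names no probe Col6a3, but 1 probe with a transcript accession as its name was matched to that gene. This Col6a3 probe averaged 4.42 ± 0.27 at 20 months and 4.33 ± 0.20 at 6 months, a change of 0.09 ± 0.13 (adjusted p = 0.900 over all probes). It was the brightest of 8 chain probes that the naming rule did not reach. Besides it, a second Col6a2 probe was detected (change 0.06 ± 0.11), and 6 probes of Col12a1, Col16a1, Col19a1, Col26a1 and Col6a5 were above background on 0 arrays.

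None of the 5 fibril-associated chains had a 95% interval that left out 0. Col14a1, which coats fibrils in tissues under load, had the most negative change, with 4.06 ± 0.13 at 20 months and 4.19 ± 0.23 at 6 months (-0.13 ± 0.11, adjusted p = 0.780), while its second probe had a change of 0.05 ± 0.10. Col16a1, which occurs near fibrils and microfibrils, had a change of 0.14 ± 0.13 and its second probe of 0.25 ± 0.20. Col12a1, the close relative of Col14a1, ranged from -1.79 to -0.74 at 20 months and from -1.56 to -0.49 at 6 months and had a change of 0.03 ± 0.20. The highest of its 12 values was that of 6 months replicate 1. Col20a1 had a change of 0.09 ± 0.13 with 1 probe and of -0.14 ± 0.17 with the other, and Col9a2, a cartilage chain, of -0.06 ± 0.16.

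Among the other chains, Col23a1, a transmembrane collagen, had the smallest p, with -1.32 ± 0.13 at 20 months and -1.65 ± 0.39 at 6 months (0.33 ± 0.16, adjusted p = 0.651). With normexp background correction the change of Col23a1 was 0.045, and without 6 months replicate 5 it was 0.19. The 20-month values lay close together between -1.49 and -1.12, and the 6-month values spread from -2.31 to -1.29, with replicates 1 and 5 low. Its second probe had a change of 0.13 ± 0.18. The multiplexins of the basement membrane zone did not differ beyond their spread. Col18a1, the source of endostatin, averaged 6.76 ± 0.23 at 20 months and 6.73 ± 0.31 at 6 months (0.03 ± 0.15), and Col15a1 0.37 ± 0.23 at 20 months and 0.40 ± 0.36 at 6 months (-0.04 ± 0.16). The second probe of Col18a1, at 6.51 at 20 months and 6.34 at 6 months, had a change of 0.18 ± 0.15. The 2 dimmer probes of Col15a1 had changes of 0.20 ± 0.17 and 0.15 ± 0.18, opposite in sign to the brightest. Col7a1, the chain of the anchoring fibrils of skin, had a change of 0.14 ± 0.25.

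**Figure D3:**
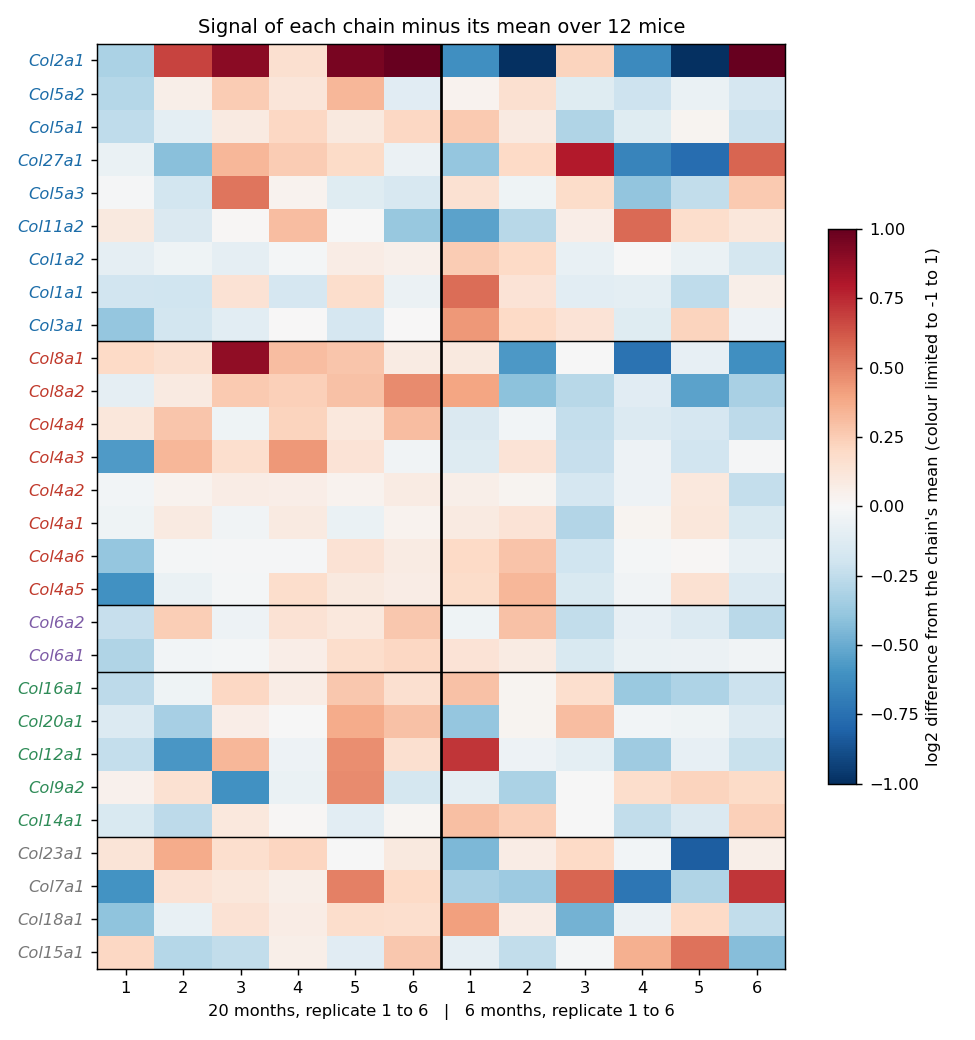
Log2 signal of each of the 28 tested chains minus its mean over the 12 mice, with the 6 mice at 20 months left of the line and the 6 mice at 6 months right of it, and chains grouped by class. The colour is limited to -1 to 1, which Col2a1 exceeds in 4 arrays. Columns such as 20 months replicate 1 and 6 months replicate 1 differ from their age group across several classes.

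The remaining 13 chain genes were not tested. Col10a1, Col11a1, Col13a1, Col17a1, Col22a1, Col24a1, Col28a1, Col6a4 and Col9a3 were well above background on 0 arrays. Col6a6 was above background on 4 arrays, Col19a1 on 3, and Col25a1 and Col9a1 on 2 each. Col19a1, a fibril-associated chain, exceeded background in 3 of 6 mice at 20 months and in 0 of 6 mice at 6 months. Its mean signal was -3.37 ± 0.49 at 20 months and -4.28 ± 0.63 at 6 months, mostly from arrays not above background, so no fold is given. The brighter probe of Col9a1 exceeded background in 0 of 6 mice at 20 months and in 2 of 6 mice at 6 months. Its values ranged from -3.89 to -3.36 at 20 months and from -4.27 to -2.63 at 6 months, so that the ages overlapped. For all chains on the array, 0 spots were saturated.

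The sign of the change was often not the same on all slides. It was the same on all 3 slides for 7 of the 28 chains, or 25.0%, against 37.2% of all genes. The median change of the chains was -0.099 on slide 1, 0.203 on slide 2 and 0.128 on slide 3, while that of all genes was -0.011, -0.008 and -0.032. Each slide holds 1 of the 3 outlying arrays, slide 1 20 months replicate 1, slide 2 6 months replicate 4 and slide 3 6 months replicate 1. Their part in these medians was not tested. Within the classes, the fibril-associated chains ranged most, with medians of -0.325, 0.211 and 0.152 on slides 1, 2 and 3, and the network chains least, with 0.089, 0.194 and 0.183. Fibrillar chains had medians of -0.131, 0.141 and 0.068.

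**Figure D4:**
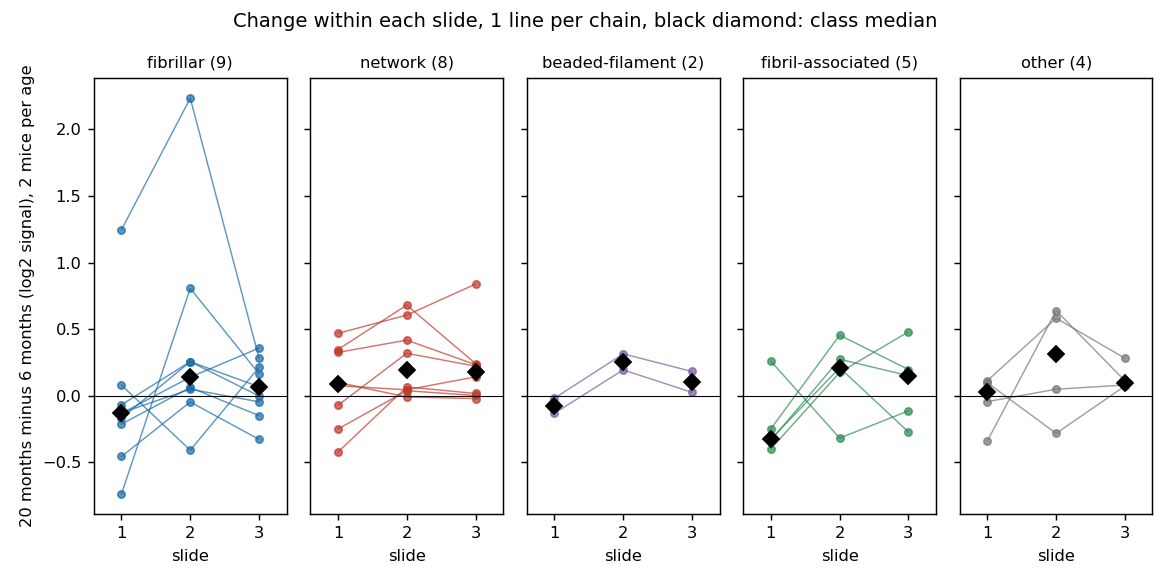
Change of each chain within each slide (20 months minus 6 months, log2, means of 2 mice per age), with 1 line per chain, 1 panel per class and a black diamond for the median of the class. The medians of fibrillar, beaded-filament and fibril-associated chains are below 0 on slide 1 and above 0 on slides 2 and 3, and those of the network and the other chains are above 0 on all 3 slides.

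The spread between mice was smaller at 20 months for 18 of the 28 chains, or 64.3%, a share near the 65.9% of all genes. Examples are Col4a2, with an SD of 0.04 at 20 months and 0.13 at 6 months, and Col1a2, with 0.07 at 20 months and 0.17 at 6 months.

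Chains of the same trimer were then compared across the 12 mice after the mean of each age had been removed. Of 8 partner pairs with both chains measured, 5 had a Pearson r with an adjusted p under 0.05 by permutation. The permutation was within ages, two-sided, with 100000 draws, and its p was adjusted over the 8 pairs. It was not run on the other pairs of chains, so this count has no general share beside it. Pairs from different trimers also reached high r, such as Col3a1 with Col5a1 (0.825) and Col4a4 with Col6a2 (0.803). A high r is therefore not shown to be particular to partners. Col6a1 and Col6a3 had an r of 0.946 (permutation p = 5e-05, adjusted p = 0.0004) and a rho of 0.888 (permutation p = 0.00018, adjusted p = 0.00072). Col4a5 and Col4a6, whose genes stand head to head on the X chromosome with starts 1343 bases apart, had an r of 0.916 (permutation p = 0.00046, adjusted p = 0.00184) and a rho of 0.930 (permutation p = 0.0001, adjusted p = 0.00072). For these 2 pairs r within a single age ran from 0.927 to 0.953. Col4a1 and Col4a2 had an r of 0.818 (permutation p = 0.0173, adjusted p = 0.0276) and a rho of 0.839 (permutation p = 0.00598, adjusted p = 0.012). Col6a2 and Col6a3 had an r of 0.788 (permutation p = 0.00298, adjusted p = 0.00795) and a rho of 0.811 (permutation p = 0.00294, adjusted p = 0.00784). Col6a1 and Col6a2 had an r of 0.720 (permutation p = 0.0109, adjusted p = 0.0218) and a rho of 0.629 (permutation p = 0.039, adjusted p = 0.0624).

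The fibrillar pairs did not pass the adjustment on r. Col1a1 and Col1a2 had an r of 0.662 (permutation p = 0.0437, adjusted p = 0.0582) and a rho of 0.608 (permutation p = 0.0738, adjusted p = 0.0984). Col5a1 and Col5a2 had an r of 0.572 (permutation p = 0.0552, adjusted p = 0.0631) and a rho of 0.420 (permutation p = 0.199, adjusted p = 0.227). The type VIII chains, both with a higher mean at 20 months, had the lowest r of the 8 pairs among mice of one age. Col8a1 and Col8a2 had an r of 0.243 (permutation p = 0.550, adjusted p = 0.550) and a rho of 0.0979 (permutation p = 0.781, adjusted p = 0.781). Over all 378 pairs of tested chains the median r was 0.168, and it was 0.204 within a class and 0.146 between classes. All pairs share the same arrays and scaling.

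Several of these correlations changed with the arrays and means used. Leaving out the arrays farthest from the median narrows the range of the first chain, which can by itself lower r. A lower r there therefore cannot show that a correlation rests on few mice. Without the 2 arrays farthest from the median of the first chain, r was 0.883 for Col6a1 and Col6a3, 0.745 for Col4a5 and Col4a6, 0.751 for Col6a2 and Col6a3, 0.502 for Col6a1 and Col6a2, 0.457 for Col4a1 and Col4a2, 0.245 for Col1a1 and Col1a2, 0.342 for Col5a1 and Col5a2 and 0.397 for Col8a1 and Col8a2, and 1 of the 8 pairs, Col6a1 and Col6a3, still passed (permutation, adjusted p = 0.0119). With the means of age and slide removed, r was 0.934 for Col6a1 and Col6a3 and for Col4a5 and Col4a6, 0.794 for Col4a1 and Col4a2, 0.959 for Col6a2 and Col6a3, 0.937 for Col6a1 and Col6a2 and 0.938 for Col1a1 and Col1a2. There the exact permutation within age and slide has 64 arrangements and a smallest p of 0.0156, and 0 of the 8 pairs had an adjusted p under 0.05, the lowest being 0.050. Slides hold too few mice for a correlation within each.

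Without the 3 outlying arrays, r was 0.853 for Col6a1 and Col6a3, 0.840 for Col4a5 and Col4a6 and 0.803 for Col4a1 and Col4a2, and -0.136 for Col8a1 and Col8a2. With 9 mice 0 of the 8 pairs passed, the lowest adjusted p being 0.0509 (permutation).

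**Figure D5:**
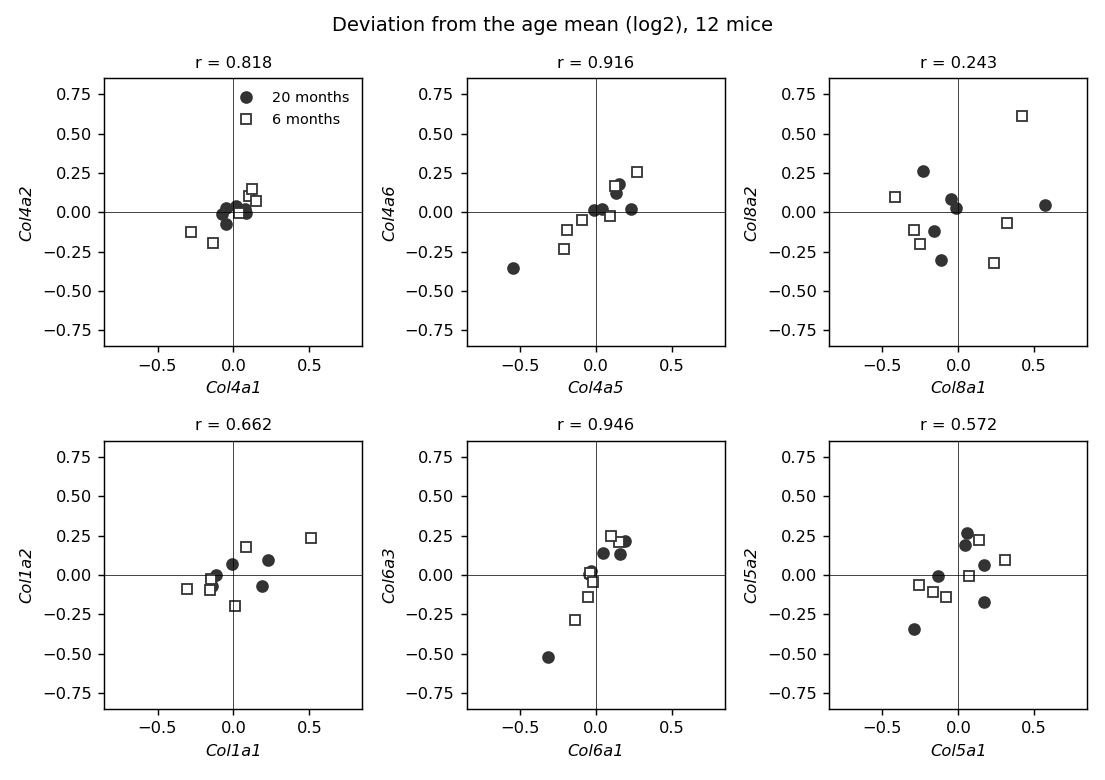
Deviation of each mouse from the mean of its age (log2) for 6 pairs of partner chains, with filled circles for 20 months and open squares for 6 months and Pearson's r over 12 mice above each panel. Points follow a line for Col6a1 with Col6a3 and for Col4a5 with Col4a6, where 20 months replicate 1 is the lowest point, and form no line for Col8a1 with Col8a2.

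Over the 12 mice, with age means removed, each of the 4 chains named above was set against the other chains. Col4a4 was most like Col6a2 (r = 0.803), Col8a1 most like Col5a3 (r = 0.624), Col8a2 most like Col1a1 (r = 0.745) and Col3a1 most like Col5a1 (r = 0.825). Each r was picked as the highest of its chain, so some high value was bound to appear, and none was tested. For Col8a2 and Col1a1, 6 months replicate 1 had the highest 6-month value of both (-0.23 and 6.74), and r without it was not computed.

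Genes that modify, cleave, crosslink, bind and degrade collagen were read from the same fit. Of 44 such genes on the array 38 were tested, 0 were called by limma, 29 had a positive and 9 a negative change, and the median change was 0.077. At an unadjusted p under 0.05 there were 3 of the 38, all higher at 20 months, or 7.89%, a share near the 7.97% of all genes. Adamts14, which removes the amino-terminal propeptide of fibrillar collagen, averaged 1.76 ± 0.19 at 20 months and 1.42 ± 0.15 at 6 months (0.34 ± 0.10, adjusted p = 0.288). P3h2, a prolyl 3-hydroxylase that acts on type IV collagen, averaged 0.07 ± 0.41 at 20 months and -0.52 ± 0.28 at 6 months, a change of 0.58 ± 0.19 or 1.50-fold (adjusted p = 0.344) that was 0.59, 0.48 and 0.68 on the 3 slides. Mmp2, gelatinase A, averaged 2.19 ± 0.13 at 20 months and 1.996 ± 0.15 at 6 months (0.19 ± 0.09, adjusted p = 0.625).

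The next in order of p were Loxl4, a lysyl oxidase-like enzyme (0.46 ± 0.22, adjusted p = 0.639), Plod1, a lysyl hydroxylase (0.22 ± 0.10, adjusted p = 0.659), and Pcolce2, an enhancer of carboxy-terminal propeptide removal (-0.19 ± 0.10, adjusted p = 0.671), whose change was -0.19, -0.20 and -0.19 on the 3 slides. By step, the median change was 0.126 for 12 prolyl and lysyl hydroxylases and their partners, 0.028 for 5 genes of glycosylation, folding and export, 0.082 for 6 genes of propeptide removal, 0.074 for 5 lysyl oxidases, 0.015 for 7 receptors and binding proteins and 0.146 for 3 genes of breakdown. Lox itself had a change of 0.01 ± 0.14 and Serpinh1, the collagen chaperone of the endoplasmic reticulum, of -0.11 ± 0.08.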

How the data were processed

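RNA of the descending aorta of 12 male mice, separate animals, was measured on 12 Agilent Cy3 arrays of design 028005. Per the file headers, the authors ran Feature Extraction 10.7.1.1, and the deposited intensity values are processed green signals, corrected for background within each array and not scaled between arrays. A deposited table of log2 values of the same arrays, centred per probe, was used as an alternative. Its steps are not given in the sources used here.

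Signals were taken to log2 and each array's 75th percentile was subtracted. Spots flagged as outliers were left out (51 of 55681 gene probes were lost in this way) and spots of a probe were averaged. Probes above background on at least 6 of 12 arrays were kept (27579), and the brightest probe stood for a gene, which gave 16820 genes. Names came from RefSeq accessions (26413 probes), symbols (3859) or the array (5240). Probe positions are those of the files (mm9), and exons and UTRs were not assigned. Ages were compared with limma 3.58.1 (R 4.3.3) over all genes, with age as the only term, Benjamini-Hochberg adjustment and a threshold of 0.05. The fit was tested on simulated data. Correlations and their permutations were computed with NumPy 2.4.6, with ranks from SciPy 1.17.1.

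The members and all lists were chosen with earlier results of these data known. Chains are described if past the threshold, among the 4 smallest p-values of a class, or among the main chains of the wall, and 6 processing genes by p. Alternatives were normexp (offset 50), the value table, scaling to the median, quantile normalization, other filters on dim probes, slide and replicate blocks, array weights, trend and robust settings, probe means, each array left out, and the 3 outlying arrays left out. The number of arrays, 6 per age, sets the precision.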

Additional observations from a re-analysis of the deposited data

Results flagged for a closer look

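In 68 groups (34 genes at 2 ages, 6 mice each), 7 held a value, from 4 mice in all, that stood apart from the other 5 of that age by a gap of more than 0.625 of the whole range (Dixon's test). The 34 genes are the 28 tested chains and the 6 processing genes with the smallest p. This is 10.3% of the groups, where the nominal share for independent, normally distributed values is about 5%. The groups share the same mice and some of the genes are correlated. The share over all genes was not computed, so an excess is not shown. At 20 months, replicate 1 was low for both type IV chains of the X chromosome, with Col4a5 at 2.14 against 2.67 for the nearest mouse and Col4a6 at 3.23 against 3.60. At 20 months, replicate 3 was high for Col8a1 at -1.01 against -1.60, for Col5a3 at 1.37 against 0.865, and for Loxl4 at -2.14 against -2.52. At 6 months, replicate 1 was high for Col12a1 at -0.492 against -1.26 for the nearest mouse. At 6 months, replicate 4 was low for Mmp2 at 1.71 against 1.98. Replicate 1 at 20 months and replicates 1 and 4 at 6 months are the arrays with markers of heart muscle or T cells, and the part of those markers was not tested.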

How the results depend on the processing

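The count of collagen chains called was 0 and stayed 0 in 23 of 25 alternatives. It was 1 with array weights (Col4a4, adjusted p = 0.045) and 1 without the 3 outlying arrays (Col8a2, adjusted p = 0.034). The count of processing genes called was 0 in every alternative run, as was that of chain probes without the filter, with the slide block and with the replicate block. Over all genes the count went from 6 with the replicate block to 122 with array weights, against 53. Equal replicate numbers at the 2 ages did not pair the mice (correlations of their deviations from -0.361 to 0.321, with 1 of 6 highest for its own number), and the replicate block called 0 chains.

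Small changes turned sign and none of these was called. With array weights Col12a1 was -0.011. With the mean over probes Col15a1 was 0.105 and Col20a1 -0.026. Col1a2 was 0.062 with quantile normalization and 0.064 with the value table. Without the 3 arrays Col1a1 was 0.021, Col1a2 0.025, Col27a1 -0.141, Col4a5 0.0059, Col4a6 0.030 and Col5a3 -0.018, and r of Col8a1 with Col8a2 was -0.136. The cause was not tested. Leaving out each array in turn gave -0.148 to 0.073 for Col11a2, -0.059 to 0.177 for Col12a1, -0.125 to 0.068 for Col15a1, -0.062 to 0.114 for Col18a1, -0.160 to 0.0031 for Col1a1, -0.080 to 0.0060 for Col1a2, -0.066 to 0.245 for Col27a1, -0.031 to 0.055 for Col4a1, -0.116 to 0.0018 for Col4a6, -0.074 to 0.085 for Col5a3, -0.0075 to 0.094 for Col6a1 and -0.157 to 0.059 for Col9a2. Leaving out each array, the median change ranged from 0.031 to 0.101 for all chains, -0.045 to 0.070 for fibrillar, 0.085 to 0.195 for network, 0.057 to 0.159 for beaded-filament, -0.059 to 0.150 for fibril-associated and 0.024 to 0.193 for other chains. Over the 25 alternatives Col4a4 ranged from 0.27 to 0.37, Col8a1 from 0.31 to 0.72, Col8a2 from 0.30 to 0.66 and Col3a1 from -0.33 to -0.19. The count of partner pairs passing, 5 of 8, was 1 without the 2 farthest arrays, 0 with age and slide means removed and 0 without the 3 arrays, each of these with fewer arrays or arrangements.

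Signal over background limits the dim chains Col2a1 and Col11a2, and 13 chains that no test reached.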
